A study of Mus musculus with 6 samples.

Results

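REST peaks that carried RCOR3 or SIN3B as their only cofactor peak made up 542 of the 3080 REST peaks examined in E14 mouse embryonic stem cells, an established line. They were chosen as REST peaks with exactly 1 of 5 cofactor lists (RCOR1, RCOR2, RCOR3, SIN3A, SIN3B) present, that one being RCOR3 (187 peaks, called RCOR3-alone here) or SIN3B (355 peaks, called SIN3B-alone). A cofactor was counted as present when the midpoint of one of its peaks lay less than 400 bp from the REST midpoint on the same chromosome. REST peaks of a crowded stretch of chromosome X, which runs from 165313931 to 165352151 and holds 24 of the 3104 deposited REST peaks, were left out, and none of those 24 would have been a member.

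REST is a zinc finger repressor that binds RE1 elements and keeps neuronal genes silent outside neurons. It recruits corepressors through both ends of the protein. The C-terminal end binds CoREST proteins, the family of RCOR1, RCOR2 and RCOR3, which carry the histone demethylase LSD1 and histone deacetylases, and the N-terminal end binds SIN3 scaffold proteins such as SIN3A and SIN3B, on which deacetylase complexes are built. RCOR3-alone and SIN3B-alone peaks are thus REST sites at which a peak of only one of these arms was listed.

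Each protein was profiled by ChIP-seq in 1 library of E14 cells at passages 15 to 18. For REST and SIN3A, antibodies to the endogenous protein were used. RCOR1, RCOR2, RCOR3 and SIN3B were precipitated with a V5 antibody from stable E14 lines that expressed a low level of the tagged, exogenous protein; the transgene label of SIN3B names the tag VG. An RCOR3 peak and a SIN3B peak therefore come from different lines, and the labels do not say whether a line was 1 clone. There was no replicate, so no difference between libraries could be set against replicate error. The members were chosen on the peak lists themselves, so all values below are descriptions without a test. The 95% intervals, exact Clopper-Pearson for shares and from order statistics for medians, cover counting over peaks only, and neighbouring peaks are not independent.

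The authors gave each peak a score, whose definition is not given in the sources used here. Within each list most scores below 40 were whole multiples of 1 step (within 0.01). The step was 0.8363 in the RCOR3 list, where 96.0% were whole, 0.8289 in the SIN3B list (94.0%) and 0.5926 in the REST list (82.9%). The commonest score was 10.87 in the RCOR3 list and 10.78 in the SIN3B list, which is 13 steps in both, and only 3.12% and 3.35% of those lists scored lower. A score can therefore be read as a distance in steps from the bottom of its own list, although what a step counts is not stated. Read depth is not given in the sources used here either. Coordinates are those of the deposited lists, on build mm8. No gene annotation or sequence of that build was used here, so members are named by position.

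A single cofactor was far more often SIN3B or RCOR3 than any other. Of 557 REST peaks with exactly 1 cofactor, 355 had SIN3B, 187 RCOR3, 13 SIN3A, 2 RCOR2 and none RCOR1. These counts followed the order of list length, with 5318 SIN3B, 3744 RCOR3, 1314 SIN3A, 459 RCOR2 and 84 RCOR1 peaks deposited. The part of list length in the counts was not tested. RCOR3-alone was 6.07% of the REST peaks and SIN3B-alone 11.5%, and both subgroups together were 17.6%. In comparison, 18.3% (563) had RCOR3 and SIN3B and no other cofactor, and 54.4% (1676) had none. RCOR3 was present at 32.6% of REST peaks and SIN3B at 38.7%, with or without others. Of the 1003 REST peaks with RCOR3, 18.6% (16.3 to 21.2%) had no second cofactor, and of the 1192 with SIN3B, 29.8% (27.2 to 32.5%).

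The excess of SIN3B-alone over RCOR3-alone shrank or turned when the SIN3B list was shortened. The deposited SIN3B list held 5318 peaks and the RCOR3 list 3744. With the SIN3B list limited to its 3744 highest-scoring peaks, with ties at the lowest score kept, 11.61, broken at random, the order turned to 268 RCOR3-alone and 248 SIN3B-alone peaks. Of the 355 SIN3B-alone peaks, 107 then had no cofactor, and 81 peaks with RCOR3 and SIN3B became RCOR3-alone. Leaving out all SIN3B peaks tied at 11.61 gave 277 and 228, whereas keeping all of them, a list of 4163 peaks, gave 250 and 276. Cutting only the SIN3B list can remove SIN3B-alone peaks and add RCOR3-alone peaks but not the reverse, so the direction of the change was built in. Which subgroup was larger varied with the cut and is not a measure of how often REST met either protein.

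Both subgroups lay mostly above the middle of the REST list but below its top. Percentiles from 50 to below 90 held 68.4% of RCOR3-alone and 71.0% of SIN3B-alone peaks. RCOR3-alone peaks had REST scores from 8.10 to 106.68 with a median of 27.86 (25.48 to 30.82), at a median percentile of 61.4 (58.0 to 64.9) of the REST list. SIN3B-alone peaks had REST scores from 8 to 106.09 with a median of 29.93 (27.86 to 32.60), at a median percentile of 63.9 (61.4 to 66.7). The score ranges of the subgroups overlapped nearly entirely, and the intervals of their medians overlapped in part. REST peaks with no cofactor had a median score of 13.63, and those with RCOR3 and SIN3B only had 52.15. The members thus stood between these 2 classes in REST score. Only 5 RCOR3-alone peaks (2.67%) and 6 SIN3B-alone peaks (1.69%) reached the highest 10% of REST scores, against 145 of the 563 peaks with RCOR3 and SIN3B only (25.8%).

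Across the deciles of REST score the share of single-cofactor peaks rose and then fell. In decile 1, with REST scores of 8 to 9.48, 2.28% of REST peaks were RCOR3-alone (0.989 to 4.44%) and 2.56% SIN3B-alone (1.18 to 4.81%). RCOR3-alone was most frequent in decile 7, with 13.3% (9.72 to 17.6%) at REST scores of 26.82 to 35.26. SIN3B-alone was most frequent in deciles 7 and 8, with 25.3% (20.6 to 30.6%) and 25.6% (20.8 to 30.8%). In decile 10, from a REST score of 68.75, the shares were 1.61% (0.524 to 3.71%) and 1.93% (0.711 to 4.15%). There, 305 of 311 REST peaks had SIN3B and 300 had RCOR3, nearly always together. The 2 subgroups thus followed the same course, in the range of REST scores where peaks without a cofactor gave way to peaks with both.

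**Figure D1:**
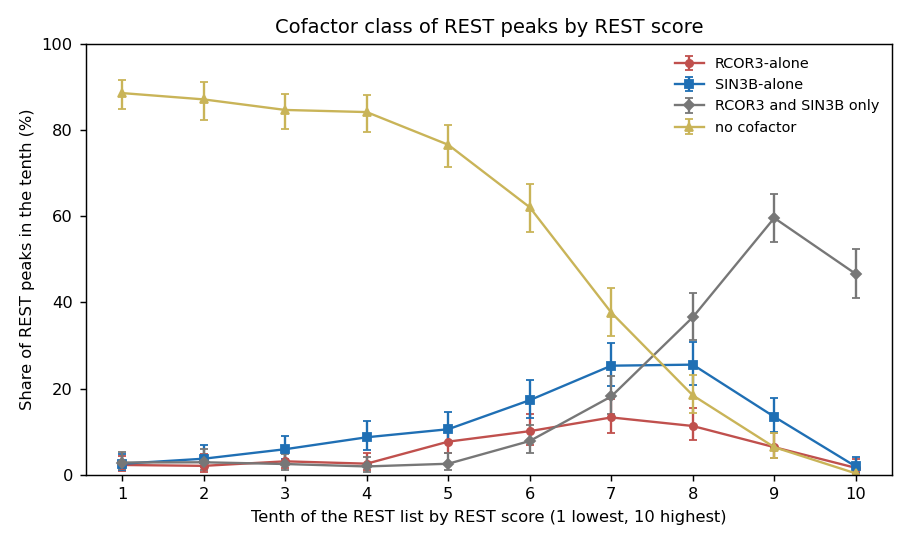
Share of REST peaks (%, y axis) in each decile of REST score (x axis, 1 lowest to 10 highest) that were RCOR3-alone, SIN3B-alone, had RCOR3 and SIN3B only, or had no cofactor; bars are exact 95% intervals. RCOR3-alone is highest at 13.3% in decile 7 and SIN3B-alone at 25.6% in decile 8, while the share without a cofactor falls from 88.6% to 0.322%.

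Among REST peaks that carried a given cofactor, being alone was commonest at middling REST scores. In decile 5, 66.7% of the REST peaks with RCOR3 (24 of 36) and 70.2% of those with SIN3B (33 of 47) had no other cofactor. In decile 9 these shares were 8.20% (20 of 244) and 15.4% (42 of 272). In decile 1 they were 29.6% (8 of 27) and 31.0% (9 of 29), so weak REST peaks that did carry a cofactor often carried several.

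The cofactor peaks at these sites were of middling rank in their own lists and scored lower than those at peaks with both cofactors. The RCOR3 scores of RCOR3-alone peaks ran from 9.20 to 41.82 with a median of 12.55, which is 15.0 steps and percentile 49.3 of the RCOR3 list. The SIN3B scores of SIN3B-alone peaks ran from 9.12 to 38.13 with a median of 13.26, which is 16.0 steps and percentile 49.5 of the SIN3B list. The median member thus stood 2 or 3 steps above the commonest score of its list. At REST peaks with RCOR3 and SIN3B only, the median was 19.0 steps for RCOR3 and 20 for SIN3B. At cofactor peaks without a REST peak it was 14.0 steps for RCOR3 (n = 2772) and 15.0 for SIN3B (n = 4146). Unlike the members, those peaks were not limited to sites without other cofactors. Only 6 of the 187 RCOR3-alone peaks (3.21%) and 2 of the 355 SIN3B-alone peaks (0.563%) fell in the highest 10% of their cofactor list. At peaks with both cofactors, these shares were 20.4% for RCOR3 and 9.95% for SIN3B.

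**Figure D2:**
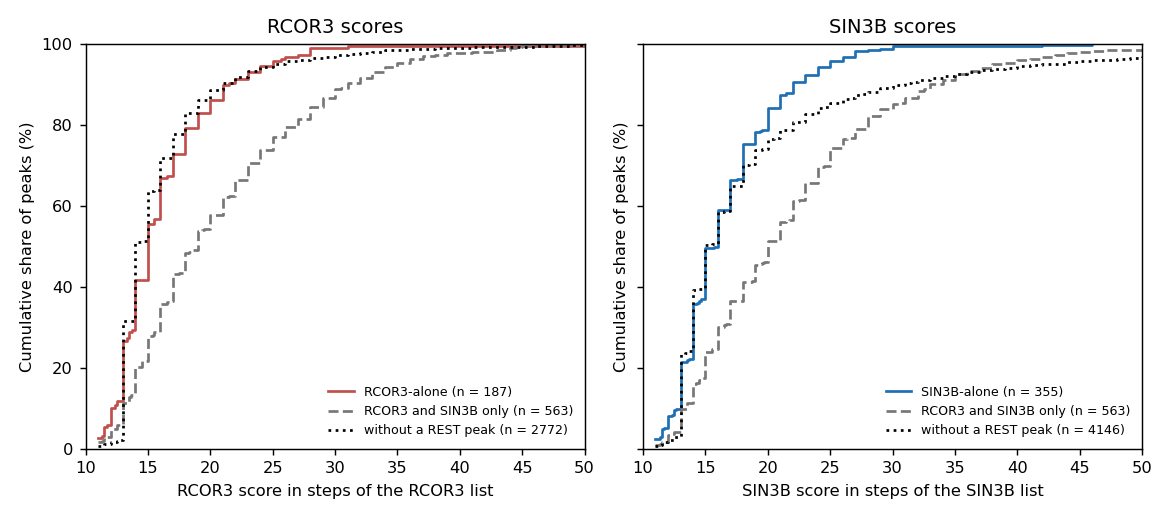
Cumulative share (%, y axis) of RCOR3 scores (left) and SIN3B scores (right), each in steps of its own list (x axis, drawn to 50 steps), for members, for REST peaks with RCOR3 and SIN3B only and for cofactor peaks without a REST peak. The curves of the members run to the left of the dashed curves of peaks with both cofactors, with medians of 15.0 against 19.0 steps for RCOR3 and 16.0 against 20 for SIN3B.

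At the upper end of the cofactor score, the subgroups stood differently to the rest of their lists. The SIN3B list held strong peaks outside REST, with an upper quartile of 20 steps and a highest value of 142, whereas SIN3B-alone peaks had an upper quartile of 18.0 steps and a highest value of 46.0. For RCOR3 the upper quartile was 18.0 steps at RCOR3-alone peaks and 17.0 at RCOR3 peaks without REST, which reached 94.0 steps. The upper quartile of SIN3B-alone peaks thus lay below that of SIN3B peaks away from REST, while for RCOR3-alone peaks it lay slightly above. Peaks away from REST could also carry other cofactors, which members could not, so the sets compared were filtered unlike.

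REST score and cofactor score were only loosely related within the subgroups. Across members, which share libraries and are not independent replicates, Spearman's rho was 0.278 for RCOR3-alone (n = 187) and 0.304 for SIN3B-alone (n = 355), against 0.539 and 0.554 for RCOR3 and SIN3B at the 563 peaks with both. The REST scores of the members spanned 8 to 106.68, and those of the peaks with both cofactors 8.89 to 212.18. At 58.3% of RCOR3-alone peaks (109) and 58.3% of SIN3B-alone peaks (207), the REST score was at least 2 times the cofactor score. At 16 RCOR3-alone peaks (8.56%) and 29 SIN3B-alone peaks (8.17%) the cofactor had the higher score, with median REST scores of 9.98 and 10.67. The lowest listed score was 8 for REST, 9.20 for RCOR3 and 9.12 for SIN3B. Members with a REST score below the lowest cofactor score were therefore bound to fall in this set. The score scales of separate lists may differ, so these ratios describe the listed values only.

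**Figure D3:**
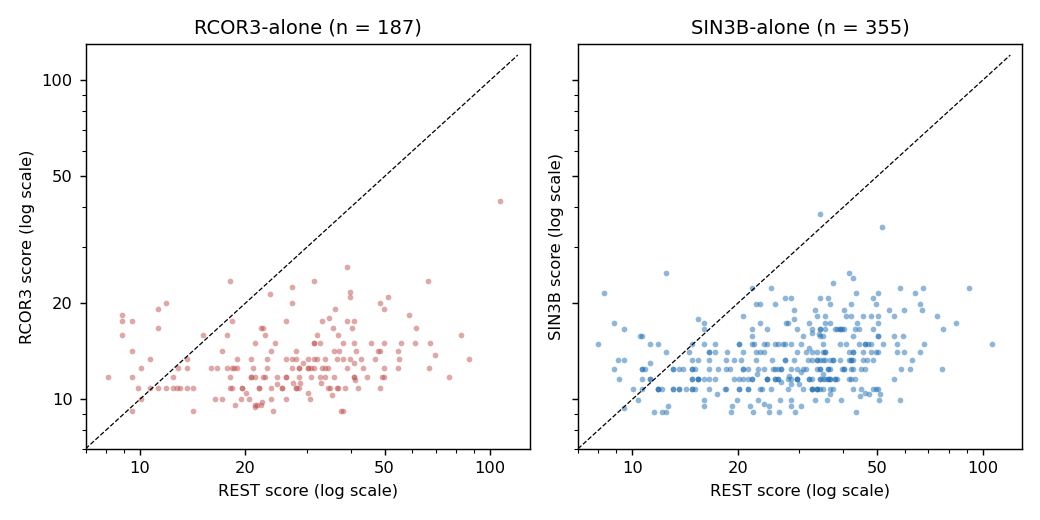
REST score (x axis, log scale) against the score of the only cofactor (y axis, log scale) at the 187 RCOR3-alone and 355 SIN3B-alone peaks, 1 point per member; the dashed line marks equal scores. Most points lie below the line in a flat band, and 16 RCOR3-alone and 29 SIN3B-alone peaks lie above it.

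The strongest RCOR3-alone member by both measures was at chr4:120364091-120364151. It had a REST score of 106.68 (rank 118 of the REST list) and an RCOR3 score of 41.82 (rank 62), the REST and RCOR3 intervals were identical, and the nearest SIN3B peak was 14.41 kb away. This site stood apart from the other RCOR3-alone members, whose next highest RCOR3 score was 25.93 at chr5:130678211-130678271 (REST score 39.12) and then 23.42, a score shared by 3 members: chr1:136922451-136922631 and 2 others, with REST scores of 18.08, 31.41 and 66.38. The next 4 members by REST score had RCOR3 scores of 11.71 to 15.89, at percentiles 35.3 to 75.7 of the RCOR3 list. At chr2:178664671-178664711 a REST score of 87.12 met an RCOR3 score of 13.38, and at chr10:59840731-59840771 a REST score of 82.38 met 15.89. At chr10:126084231-126084271 a REST score of 76.45 met 11.71 at an offset of 240 bp, and at chr7:3781711-3781751 a REST score of 69.54 met 13.80. These 4 sites had REST scores 5.04 to 6.53 times the RCOR3 score, and their nearest SIN3B peaks lay 41.73 to 457.86 kb away.

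The strongest SIN3B-alone member by REST score was at chr8:127679491-127679531, with a REST score of 106.09 (rank 120) and a SIN3B score of 14.92 from a SIN3B peak 440 bp wide. At chr5:23926671-23926711 a REST score of 91.27 met a SIN3B score of 22.38, with a SIN3A peak 2.53 kb away. At chr9:119237831-119237871 a REST score of 84.16 met 17.41, and the nearest RCOR3 peak was 182.44 kb away. At chr13:54381351-54381391 a REST score of 77.05 met 16.58, with an RCOR3 peak 1.11 kb away, and at chr10:126457771-126457811 a REST score of 76.45 met 12.43. By SIN3B score the first 3 members were chr14:23595651-23595711 (38.13, REST score 34.37), chr15:100297171-100297211 (34.82, REST score 51.56) and chr1:53651171-53651411 (24.87, REST score 12.45), the last tied with chr11:105823891-105824091 (24.87, REST score 41.49). None of these was among the 5 highest by REST score. Lists this short, drawn from 355 members, would seldom share a site even if the scores were unrelated. The lack of overlap therefore does not show that strong REST and strong SIN3B sites differed in this subgroup. Across all members, Spearman's rho between REST and cofactor score was 0.304 for SIN3B-alone and 0.278 for RCOR3-alone.

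At the weak end, the lowest REST scores among RCOR3-alone peaks were 8.10 at chr2:143768271-143768311 and 8.89 at 3 peaks, of which chr4:73702511-73702551 is 1. Their RCOR3 scores were 11.71 at the first and 15.89, 17.56 and 18.40 at the 3 tied peaks. Among SIN3B-alone peaks they were 8 at chr17:35719691-35719731 and 8.30 at chr9:62945211-62945251, with SIN3B scores of 14.92 and 21.55. At all 6 the cofactor score exceeded the REST score. This was fixed by the lists, as no RCOR3 peak scored below 9.20 and no SIN3B peak below 9.12.

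The cofactor midpoint usually lay close to the REST midpoint. All starts fell on a grid of 20 bp, so midpoints were known to 10 bp at best. The median absolute offset was 30 bp (20 to 40) at RCOR3-alone peaks and 20 bp (20 to 30) at SIN3B-alone peaks. An offset of at most 40 bp was found at 67.4% of RCOR3-alone peaks (60.2 to 74.0%) and 69.6% of SIN3B-alone peaks (64.5 to 74.3%). An offset beyond 100 bp was found at 12.8% (24 peaks, 8.40 to 18.5%) and 8.45% (30 peaks, 5.77 to 11.8%). These intervals overlapped, which does not settle whether the subgroups differed in offset. At peaks with both cofactors, 73.7% of RCOR3 and 75.7% of SIN3B midpoints lay within 40 bp of REST.

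The deposited intervals, most of them 40 or 60 bp wide, overlapped directly at 140 of 187 RCOR3-alone peaks (74.9%, 68.0 to 80.9%) and at 292 of 355 SIN3B-alone peaks (82.3%, 77.9 to 86.1%). The RCOR3 midpoint was at the higher coordinate at 95 RCOR3-alone peaks (50.8%, 43.4 to 58.2%) and at the lower at 68 (36.4%, 29.5 to 43.7%). These intervals overlapped slightly. For SIN3B-alone peaks the counts were 152 and 156. The same lean was listed for RCOR3 at peaks with both cofactors, with 268 higher (43.4 to 51.8%) and 200 lower (31.6 to 39.6%). Those intervals did not overlap, whereas SIN3B had 228 each. Strand is not known for these peaks, so the lean is one of coordinates only.

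**Figure D4:**
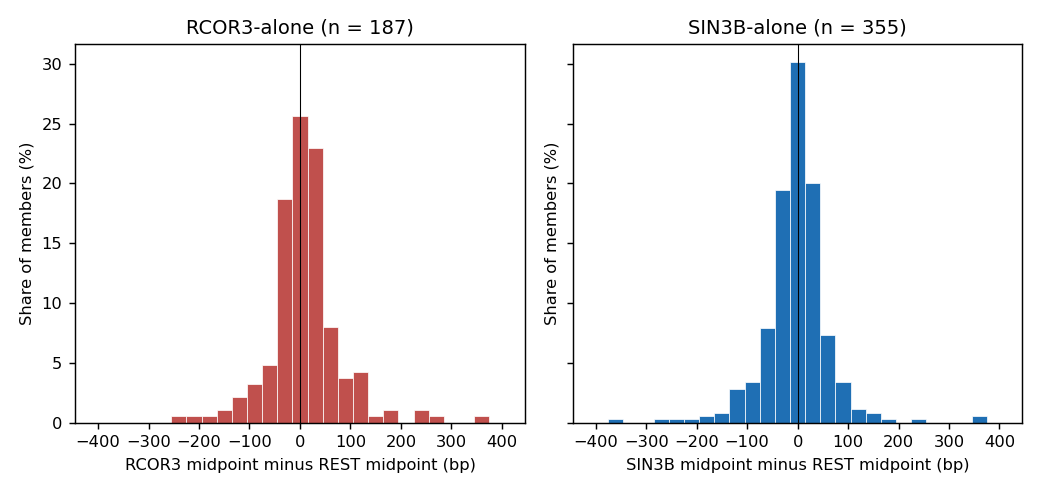
Cofactor midpoint minus REST midpoint (bp, x axis, bins of 30 bp) as a share of members (%, y axis) for RCOR3-alone and SIN3B-alone peaks. Both distributions are centred near 0, with 25.7% of RCOR3-alone and 30.1% of SIN3B-alone peaks in the central bin.

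Larger offsets went with lower REST scores. RCOR3-alone peaks with an offset of at most 40 bp had a median REST score of 29.73 (26.08 to 33.19), and those beyond 100 bp had 21.64 (15.11 to 32.00), with overlapping intervals. For SIN3B-alone peaks the medians were 32.60 (30.23 to 34.37) and 16.30 (13.63 to 28.45), whose intervals did not overlap. Among members in the lower 50% of the REST list, the cofactor lay within 40 bp at 51.9% of RCOR3-alone peaks (28 of 54, 37.8 to 65.7%) and 52.6% of SIN3B-alone peaks (51 of 97, 42.2 to 62.8%). Among those in the upper 50% it did so at 73.7% (98 of 133, 65.3 to 80.9%) and 76.0% (196 of 258, 70.3 to 81.1%). The intervals of RCOR3-alone peaks overlapped slightly, and those of SIN3B-alone peaks did not. Cofactor score had no such relation to offset, with rho of 0.039 and 0.072 across members.

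REST peak width hardly separated the subgroups. The median width was 40 bp in both, the narrowest listed, and 69.5% of RCOR3-alone peaks (62.4 to 76.0%) and 65.6% of SIN3B-alone peaks (60.4 to 70.6%) had that width. At REST peaks with both cofactors this share was 78.2% (74.5 to 81.5%), and at those with none it was 57.8% (55.4 to 60.1%). REST peaks wider than 200 bp were 8.56% of RCOR3-alone peaks (16) and 6.20% of SIN3B-alone peaks (22). The cofactor peak had a median width of 60 bp at RCOR3-alone and 40 bp at SIN3B-alone peaks, with intervals from 40 to 60 bp in both. Wide REST peaks were more frequent at large offsets in both subgroups. Widths over 100 bp were listed at 14 of the 24 RCOR3-alone peaks with an offset beyond 100 bp (58.3%, 36.6 to 77.9%) and at 6 of the 126 with an offset of at most 40 bp (4.76%, 1.77 to 10.1%). For SIN3B-alone peaks they were listed at 14 of 30 (46.7%, 28.3 to 65.7%) and 10 of 247 (4.05%, 1.96 to 7.32%). REST score also fell with REST width, with rho of -0.207 across RCOR3-alone and -0.231 across SIN3B-alone peaks. The relation of REST score to offset was not separated from that to width.

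The missing partner was rarely just beyond the limit. A SIN3B peak lay within 1000 bp of 3 RCOR3-alone peaks (1.60%, 0.332 to 4.62%) and within 5000 bp of 11 (5.88%, 2.97 to 10.3%). An RCOR3 peak lay within 1000 bp of 4 SIN3B-alone peaks (1.13%, 0.308 to 2.86%) and within 5000 bp of 12 (3.38%, 1.76 to 5.83%). REST peaks with no cofactor had SIN3B within 5000 bp at 6.09% (4.99 to 7.34%) and RCOR3 at 4.47% (3.54 to 5.58%), and these intervals overlapped those of the members. The median distance to the missing partner was 109 kb for RCOR3-alone and 145 kb for SIN3B-alone peaks. SIN3A was within 5000 bp of none of the RCOR3-alone peaks and of 11 SIN3B-alone peaks (3.10%, 1.56 to 5.48%). With 187 peaks, a count of 0 allows a share of up to 1.60% when the limit is set at 3 counts, and up to 1.95% by the exact interval. That exact interval overlaps the one of the SIN3B-alone peaks. For SIN3A no share at REST peaks with no cofactor was computed to set beside these.

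Few members sat close to the limit of 400 bp itself. The RCOR3-alone members closest to it had offsets of 360 bp (chr4:101048371-101048411, REST score 15.11, with a SIN3B peak 0.4 kb away) and 280 bp (chr2:143768271-143768311, above). The SIN3B-alone members closest to it were 3 with offsets of 350 bp, at chr2:91733951-91733991 (REST score 11.85), chr8:27062671-27062731 (REST score 17.19) and chr9:110178791-110178851 (REST score 9.09). The nearest peaks outside, which would have been members had the limit reached just past their nearest cofactor peak, had RCOR3 at 420 bp (chr16:23806111-23806151, REST score 8.89) and 470 bp (chr2:70360531-70360571, REST score 16.59), or SIN3B at 400 bp (chr19:45866851-45866891, REST score 16.00) and 410 bp (chr17:87706511-87706551, REST score 10.08). At the first RCOR3 peak and the first SIN3B peak of these, the other cofactor followed at 0.44 and 0.45 kb, so with a limit of 1000 bp neither would be a member. All of these REST peaks scored below the median of the REST list, 21.04. Limits of 200 and 1000 bp kept 96.8 and 98.4% of the RCOR3-alone peaks and 98.0 and 98.3% of the SIN3B-alone peaks.

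The chromosomes separated the subgroups most clearly. Chromosome 9 held 42 SIN3B-alone peaks, 11.8% of that subgroup (8.66 to 15.7%), and no RCOR3-alone peak, where a count of 0 allows up to 1.60% of that subgroup (3 counts) or 1.95% (exact interval). Chromosome 8 held 39 SIN3B-alone peaks (10.99%, 7.93 to 14.7%) and 4 RCOR3-alone peaks (2.14%, 0.586 to 5.39%). These chromosomes held 5.91% and 5.32% of the REST peaks. As shares of the REST peaks of the chromosome, SIN3B-alone was 23.1% (17.2 to 29.9%) on chromosome 9 and 23.8% (17.5 to 31.0%) on chromosome 8, against 10.02% on all other chromosomes together. On chromosome X outside the crowded stretch, 5 of 24 REST peaks were SIN3B-alone (20.8%, 7.13 to 42.2%, an interval that includes 10.02%) and none RCOR3-alone. The RCOR3 list held only 2 peaks there, against 26 in the SIN3B list, so few RCOR3-alone peaks were possible.

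On several other chromosomes, but not on all, RCOR3-alone had the larger share of its subgroup. The largest gaps in share were on chromosome 7 (12.3% of RCOR3-alone against 6.48% of SIN3B-alone peaks), chromosome 4 (10.2% against 5.92%) and chromosome 5 (8.02% against 3.94%). The counts there were 23 and 23, 19 and 21, and 15 and 14, out of 187 RCOR3-alone and 355 SIN3B-alone peaks. The shares of a subgroup add up to the whole, so the 81 SIN3B-alone peaks on chromosomes 8 and 9 lower its shares elsewhere. How far this made the gaps was not tested. The intervals of the shares overlapped on chromosome 7 (7.96 to 17.9% against 4.15 to 9.56%), on chromosome 4 (6.23 to 15.4% against 3.70 to 8.90%) and on chromosome 5 (4.56 to 12.9% against 2.17 to 6.53%). In the other direction chromosome 13 followed chromosomes 9 and 8, with 17 SIN3B-alone peaks (4.79%) and 4 RCOR3-alone peaks (2.14%), also with overlapping intervals (2.81 to 7.56% against 0.586 to 5.39%).

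**Figure D5:**
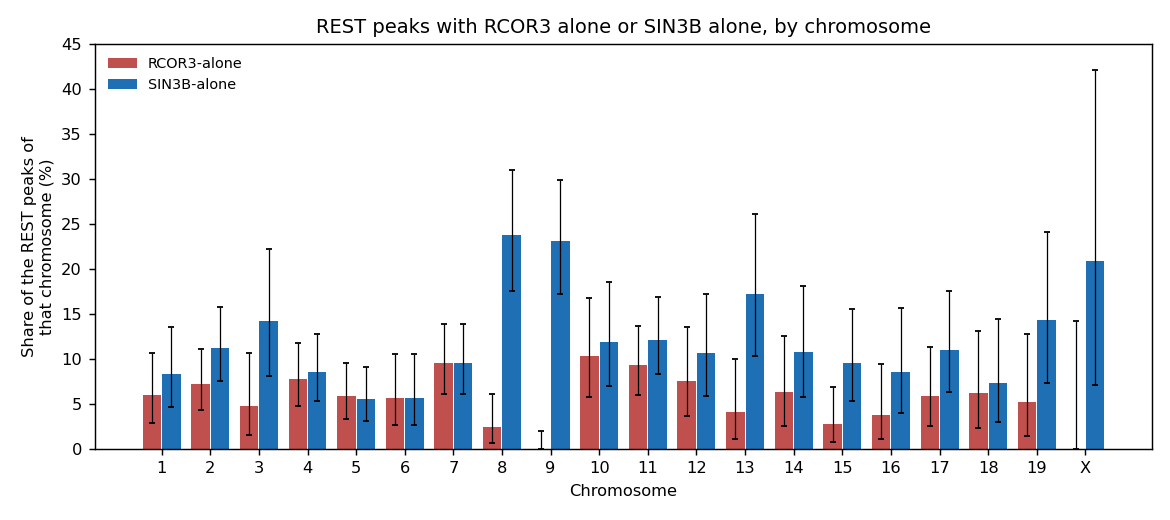
Share of the REST peaks of each chromosome (%, y axis) that were RCOR3-alone or SIN3B-alone, for chromosomes 1 to 19 and X (the crowded stretch of X left out; the 1 REST peak of chromosome Y, without a cofactor, is not drawn); bars are exact 95% intervals. SIN3B-alone stands at 23.8% on chromosome 8 and 23.1% on chromosome 9, where RCOR3-alone is 2.44% and 0%.

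At strong REST peaks of chromosome 9, SIN3B-alone was more frequent and the pair of RCOR3 and SIN3B less frequent than elsewhere. Among the REST peaks in the highest 30% of REST scores, 38.6% on chromosome 9 were SIN3B-alone (22 of 57, 26.0 to 52.4%) and 19.3% had RCOR3 and SIN3B only (10.05 to 31.9%). On the chromosomes other than 8 and 9 these shares were 11.4% (96 of 839, 9.37 to 13.8%) and 50.4% (47.0 to 53.9%). SIN3B itself was present at 86.0% of these strong REST peaks on chromosome 9 and at 84.7% on the others, whereas RCOR3 was present at 40.4% (27.6 to 54.2%) and 79.9% (77.0 to 82.5%). On chromosome 8, 25% of 36 such peaks were SIN3B-alone (12.1 to 42.2%, which overlaps the interval of the other chromosomes) and 27.8% had the pair (14.2 to 45.2%, which does not), with RCOR3 at 52.8% (35.5 to 69.6%). There the pair was not less frequent than SIN3B-alone.

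The whole RCOR3 list was thin on these chromosomes. It held 40 peaks on chromosome 9 (1.07% of the list) and 92 on chromosome 8 (2.47%), against 309 (5.84%) and 466 (8.80%) in the SIN3B list. On chromosome 8 the intervals of both subgroup shares held the share of the matching list. On chromosome 9 that of RCOR3-alone did so too. Only the SIN3B-alone share on chromosome 9, 11.8% (8.66 to 15.7%), lay above that of its list. All 27 REST peaks with RCOR3 on chromosome 9 also had SIN3B or another cofactor, and 23 of them were in the highest 20% of REST scores, against 53.5% of the REST peaks with RCOR3 on the chromosomes other than 8 and 9. On chromosome 8, 14 of the 28 REST peaks with RCOR3 were in the highest 20%. At peaks with RCOR3 and SIN3B only, the median ratio of the RCOR3 score to the REST score was 0.200 on chromosome 9 (n = 14, 0.163 to 0.517), 0.269 on chromosome 8 (n = 11, 0.139 to 0.416) and 0.312 on the others (n = 538, 0.301 to 0.328). That of SIN3B was 0.294 (0.238 to 0.432), 0.346 (0.225 to 0.484) and 0.319 (0.309 to 0.332), and for both cofactors the intervals overlapped. The part of the thin RCOR3 list in the subgroup counts of chromosomes 8 and 9 was not tested. Without chromosomes 8 and 9, 183 RCOR3-alone and 274 SIN3B-alone peaks were left, and being alone accounted for 19.3% (16.8 to 22.0%) of REST peaks with RCOR3 and 26.1% (23.5 to 28.9%) of those with SIN3B.

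SIN3B-alone peaks of chromosome 9 also had the higher median REST score. Their median was 36.45 (30.82 to 42.67, n = 42), against 25.48 (17.19 to 29.63, n = 39) on chromosome 8 and 29.78 (27.26 to 33.78, n = 274) elsewhere. The interval of chromosome 9 overlapped that of the chromosomes other than 8 and 9, but not that of chromosome 8. The SIN3B scores were close together, with medians of 14.09, 12.99 and 12.43 and overlapping intervals (12.43 to 15.75, 12.43 to 14.92 and 12.43 to 13.26). In the highest 30% of REST scores lay 52.4% of the SIN3B-alone peaks of chromosome 9, 23.1% of those of chromosome 8 and 35.0% of the others.

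Members were mostly solitary REST peaks. Another REST peak lay within 1000 bp of 9 RCOR3-alone peaks (4.81%, 2.22 to 8.94%) and 13 SIN3B-alone peaks (3.66%, 1.96 to 6.18%), against 9.77% (7.44 to 12.5%) of the peaks with RCOR3 and SIN3B only and 2.86% (2.12 to 3.78%) of those with no cofactor. Of those neighbours, 6 in each subgroup were members of the same subgroup. Such neighbours share a cofactor peak in part: the 187 RCOR3-alone peaks used 184 RCOR3 peaks, and the 355 SIN3B-alone peaks used 352 SIN3B peaks. In 1 place a member of each subgroup stood side by side. At chr11:23031311-23031351 a REST score of 20.15 met an RCOR3 score of 10.45, and 480 bp on, at chr11:23031791-23031831, a REST score of 44.45 met a SIN3B score of 16.58.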

How the data were processed

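The authors deposited 1 peak list per library, 6 in all, with chromosome, start, end and a score for each peak; build mm8 is taken from the names of the deposited lists. How reads were aligned, how peaks were called and against which control, and how deep the libraries were is not given in the sources used here. Per the labels' protocols, libraries were amplified with 15 cycles of PCR and cut at about 250 bp. Positions deposited by the authors fall on a 20 bp grid and are printed as deposited.

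Cofactors were assigned to REST peaks by midpoint distance. Percentiles are ranks by score within a list, with ties at their mean rank. The score step of a list is the value between 0.5 and 1 of which most scores below 40 are whole multiples within 0.01. Assignment was tested on simulated data. No test between libraries was possible with 1 library each. Alternatives were other limits of distance, intervals as deposited, better-scoring 50% of every list, a shortened SIN3B list, chromosome subsets and solitary REST peaks. Named regions were the 5 highest REST scores, 3 highest cofactor scores, 2 lowest REST scores and 2 nearest the limit on each side in each subgroup; chromosomes were the 3 widest gaps each way with 8, 9 and X. The members, lists and rules were chosen with earlier results of these data known. Analyses used Python 3.11.15, numpy 2.4.6, pandas 2.3.3 and scipy 1.17.1.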

Additional observations from a re-analysis of the deposited data

How the results depend on the processing

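Of 114 values of 14 results under 8 other settings and 3 more chosen after seeing the data, 102 stayed within 1.5 times the count or inside the interval of the reported value, and 12 moved. This tally is not a measure of robustness. Keeping the stretch of chromosome X could change no value, as it holds no member, and the median REST width stayed at the narrowest listed, 40 bp. The better-scoring 50% holds only percentiles of 50 or more, so rises in percentile there were partly built in. With intervals as deposited that overlap by at least 1 bp, the median REST percentile went to 69.6 for RCOR3-alone and 68.7 for SIN3B-alone. With the better-scoring 50% of every list, it went to 75.1 and 76.1, the median cofactor percentile to 71.4 and 70.4, and the number of SIN3B-alone peaks to 210; 66 of the 187 RCOR3-alone and 121 of the 355 SIN3B-alone peaks remained members. With the SIN3B list limited to the length of the RCOR3 list, the median REST percentile was 65.6 for RCOR3-alone and 68.0 for SIN3B-alone, and the median SIN3B percentile 56.5. Of the settings chosen after seeing the data, that limit without chromosomes 8 and 9 gave 185 SIN3B-alone and 263 RCOR3-alone peaks, and leaving out all tied peaks at the limit gave 228 SIN3B-alone peaks. Percentiles are those of the full lists throughout. The shares of chromosomes 8 and 9 stayed inside their intervals under the 7 settings for which they were computed, and were not computed for the 3 chosen after seeing the data. No paired analysis was possible because each protein has 1 library. The number of peaks limits all shares, and read depth is not given in the sources used here.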

Other observations

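Cofactor peaks with the lowest scores gathered at REST. In the RCOR3 list, 116 peaks outside the crowded stretch of chromosome X scored below the commonest score of 10.87, and 50.9% of them (59, 41.4 to 60.3%) lay at a REST peak, against 25.7% of the whole list. In the SIN3B list, 177 peaks scored below 10.78, and 33.3% of them (59, 26.4 to 40.8%) lay at REST, against 21.7% of the whole list. Single-cofactor sites held many of these: 11.8% of RCOR3-alone peaks (22 of 187, 7.52 to 17.3%) and 9.86% of SIN3B-alone peaks (35 of 355, 6.96 to 13.4%) had such a cofactor score, against 2.06% (1.56 to 2.66%) and 2.85% (2.36 to 3.40%) of the RCOR3 and SIN3B peaks without a REST peak. At REST peaks with RCOR3 and SIN3B only, the shares were 5.86% and 4.26%.

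SIN3A, precipitated through the endogenous protein, was the only cofactor at 13 REST peaks, 5.04% of the 258 REST peaks with SIN3A. Their median REST score was 12.45, at percentile 26.5 of the REST list, with a median offset of 50 bp. The highest REST scores among them were 42.47 at chr12:56190611-56190651 and 39.71 at chr18:46341551-46341611. RCOR2 was the only cofactor at 2 REST peaks, at chr7:128479091-128479131 (REST score 13.04) and chr11:80705951-80705991 (REST score 11.85), out of 74 with RCOR2. These sites were named after their values were seen.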
